A study of Rattus norvegicus with 39 samples.

Results

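Grik1 and Grik2 encode the kainate receptor subunits GluK1 and GluK2, and they are described here across all groups of cell type, cycle stage and treatment in female rats. They are 2 of the 23978 genes in the count table. Their rows were found through the Ensembl identifiers that the supplementary tables of the study pair with these symbols, ENSRNOG00000001575 for Grik1 and ENSRNOG00000000368 for Grik2. Grik3, Grik4 and Grik5, the genes of the remaining kainate subunits, were not paired with an identifier and are not analysed here.

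Ribosome-bound mRNA was collected from the nucleus accumbens (NAc) of adult female Long Evans rats whose exact ages are not given in the sources used here. All rats were heterozygous for an iCre transgene under Drd1a regulation (D1-Cre) or Drd2 regulation (D2-Cre), and all received an AAV9 vector in the NAc that adds an HA tag to the ribosomal protein Rpl22 only where Cre is active. Each library is the HA immunoprecipitate (IP) of bilateral tissue punches from 1 rat. The tagged cells are those that took up the virus and expressed Cre, and the share of RNA from untagged cells was not tested. Rats were injected with saline or with racemic ketamine (10 mg/kg, i.p.) on 6 occasions, always in proestrus or always in diestrus, and were killed in a drug-free state after a return to the test chamber. Ketamine-treated rats were included only when their locomotor activity had risen over treatment, a selection that saline-treated rats did not undergo. Of the 8 groups, 7 hold 5 libraries, and the D2-Cre group given ketamine in proestrus holds 4, after a library was excluded by the authors. Libraries are called D1 or D2 after the Cre line.

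Kainate receptors are ionotropic glutamate receptors built as tetramers. GluK1 and GluK2 belong to the subunits that can form functional channels without other subunit types, and transcripts of both can be changed at a glutamine codon in the pore region by adenosine-to-inosine RNA editing. In the brain these receptors act at postsynaptic sites and also on axon terminals, where they adjust the release of GABA and glutamate. Striatal projection neurons, the medium spiny neurons (MSNs), and interneurons are both known to express kainate receptor subunits.

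The promoters of both genes are shown because they surround an annotated start of each gene and are the only sequences used here for them. Whether the measured transcripts start there was not tested. They come from RefSeq on the GRCr8 build, which is not the build the authors used for quantification, and they run from 250 bases before to 50 bases after the annotated start. Both lie on the minus strand, Grik1 at chr11:41056454-41056753 and Grik2 at chr20:54415234-54415533. Capitals mark matches to the E-box CANNTG or to the cAMP response element (CRE) half-site TGACG, searched on both strands.
Grik1: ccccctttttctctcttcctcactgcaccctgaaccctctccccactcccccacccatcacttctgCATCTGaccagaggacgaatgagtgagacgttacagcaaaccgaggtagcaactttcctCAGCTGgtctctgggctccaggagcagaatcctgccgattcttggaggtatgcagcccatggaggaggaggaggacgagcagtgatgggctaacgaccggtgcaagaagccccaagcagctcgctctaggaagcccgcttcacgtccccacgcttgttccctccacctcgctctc
Grik2: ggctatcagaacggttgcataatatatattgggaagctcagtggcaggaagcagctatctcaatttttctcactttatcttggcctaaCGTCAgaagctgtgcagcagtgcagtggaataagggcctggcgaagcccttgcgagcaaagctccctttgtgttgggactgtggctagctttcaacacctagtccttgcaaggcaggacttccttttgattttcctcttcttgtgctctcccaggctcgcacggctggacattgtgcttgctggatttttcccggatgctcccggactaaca
The Grik1 promoter held 2 E-boxes, CATCTG and CAGCTG, and no CRE half-site. The Grik2 promoter held 1 CRE half-site, read as CGTCA on the printed strand, and no E-box. Of 33469 promoters of 300 bases, 72.1% held an E-box and 21.2% held a CRE half-site. Neither promoter held the TATA box TATAAA (14.2% of promoters), the GC box GGGCGG (33.1%), the full CRE TGACGTCA (1.83%), the AP-1 site TGANTCA (7.33%) or the oestrogen receptor half-site AGGTCA (16.2%). The full CRE contains the half-site. G and C made up 58.7% of the Grik1 window and 50.3% of the Grik2 window, against a median of 51.7%, and the sequences shared no run of 10 bases.

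Total counts per library ranged from 2396517 to 43224256, and all but the lowest were at 16118050 or above. The lowest belonged to library 39, a diestrus D2 saline library, in which Grik1 had 28 counts and Grik2 had 183. The 38 other libraries had 159 to 616 counts for Grik1 and 1329 to 3267 for Grik2. Library 33, a proestrus D1 saline library, stood apart on the first principal component of the 200 most abundant genes, at -7.68 against -2.06 to 3.56 in the other 38. Levels below are CPM, counts scaled to a common library size and normalized by TMM over all 39 libraries. They depend on transcript length, so levels of Grik1 and Grik2 are each compared between libraries and not with one another. In an IP library, a change in the number of tagged cells that express a gene, in mRNA per cell or in RNA from untagged cells cannot be told apart. Over all libraries the mean was 16.5 CPM for Grik1, the 45th percentile among 14129 genes kept by the low-count filter, and 82.3 CPM for Grik2, the 79.5th percentile.

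Grik2 was higher in D1 than in D2 libraries, in saline-treated and in ketamine-treated females. In proestrus saline libraries, Grik2 stood at 79.3, 96.3, 93.3, 85.6 and 94.0 CPM in the 5 D1 libraries and at 70.4, 76.9, 78.8, 72.8 and 76.3 CPM in the 5 D2 libraries. In diestrus saline libraries it stood at 92.6, 81.0, 94.0, 88.4 and 98.2 CPM in D1 and at 77.0, 68.4, 80.5, 73.0 and 76.2 CPM in D2. Within each stage every D1 library was above every D2 library, a separation with D1 higher that 2.94% of genes showed in proestrus and 3.11% in diestrus. With both stages together, 9 of 10 D1 saline libraries were above all D2 libraries. All 10 were above for 0.979% of genes, a separation that Grik2 did not reach, and the share of genes with 9 of 10 above was not counted.

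Pooled over stages, saline D1 libraries averaged 90.3 ± 6.44 CPM of Grik2 (SD, n = 10) and saline D2 libraries 75.0 ± 3.80 CPM (SD, n = 10). The log2 fold change, D2 minus D1 throughout, was -0.27 (95% interval -0.36 to -0.19, edgeR adjusted p = 7.71e-05 with Benjamini-Hochberg adjustment). Genes with an adjusted p below 0.1, the threshold the study used, are here called differentially expressed (DE). In this comparison 28.8% of genes were DE in either direction and 14.1% with a D1 bias, so a D1-biased call was common among all genes. By size, the change of Grik2 exceeded that of 79.3% of genes tested. Grik2 was also DE within proestrus (-0.26, SE 0.0706, edgeR adjusted p = 0.0734), where 5.41% of genes were called and 2.6% with a D1 bias. Within diestrus (-0.31, SE 0.0781, edgeR adjusted p = 0.0605) it was DE where 4.11% of genes were called and 2.38% with a D1 bias. Both within-stage calls were close to the threshold. The proestrus call was lost when any 1 of libraries 9, 13, 25, 29, 33 or 37 was left out, with log2 fold changes of -0.29 to -0.20. The diestrus call was lost without library 15, 19 or 31, with values of -0.30 to -0.25.

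In ketamine-treated females the same direction was measured for Grik2. In proestrus it stood at 90.0, 84.4, 85.7, 81.8 and 97.6 CPM in D1 and at 65.7, 76.0, 72.2 and 79.3 CPM in D2 libraries, again without overlap, which 3.11% of genes showed with D1 higher. In diestrus it stood at 83.1, 88.1, 96.9, 79.1 and 92.3 CPM in D1 and at 70.0, 76.3, 78.0, 71.3 and 90.2 CPM in D2. Here the groups overlapped (2.48% of genes had all D1 libraries higher) through library 40, the D2 library at 90.2 CPM, and the other 4 D2 libraries were below all D1 libraries. Pooled D1 libraries averaged 87.9 ± 6.26 CPM (SD, n = 10) and pooled D2 libraries 75.4 ± 6.99 CPM (SD, n = 9), a log2 fold change of -0.19 (95% interval -0.25 to -0.12, edgeR adjusted p = 0.000341), where 18% of genes were DE and 9.83% with a D1 bias. Within proestrus the change was -0.23 (SE 0.0481, adjusted p = 0.0172), with 5.61% of genes called and 3.21% with a D1 bias. Within diestrus it was -0.18 (SE 0.0475, adjusted p = 0.0267), with 12.8% of genes called and 6.6% with a D1 bias, and that call was lost without library 20 (-0.14, adjusted p = 0.128) and in edgeR with 1 or no surrogate variable (-0.18 and -0.19). It was also lost in DESeq2 without surrogate variables (-0.19) and in edgeR with blocks of 8 consecutive library numbers in their place (-0.19).

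**Figure D1:**
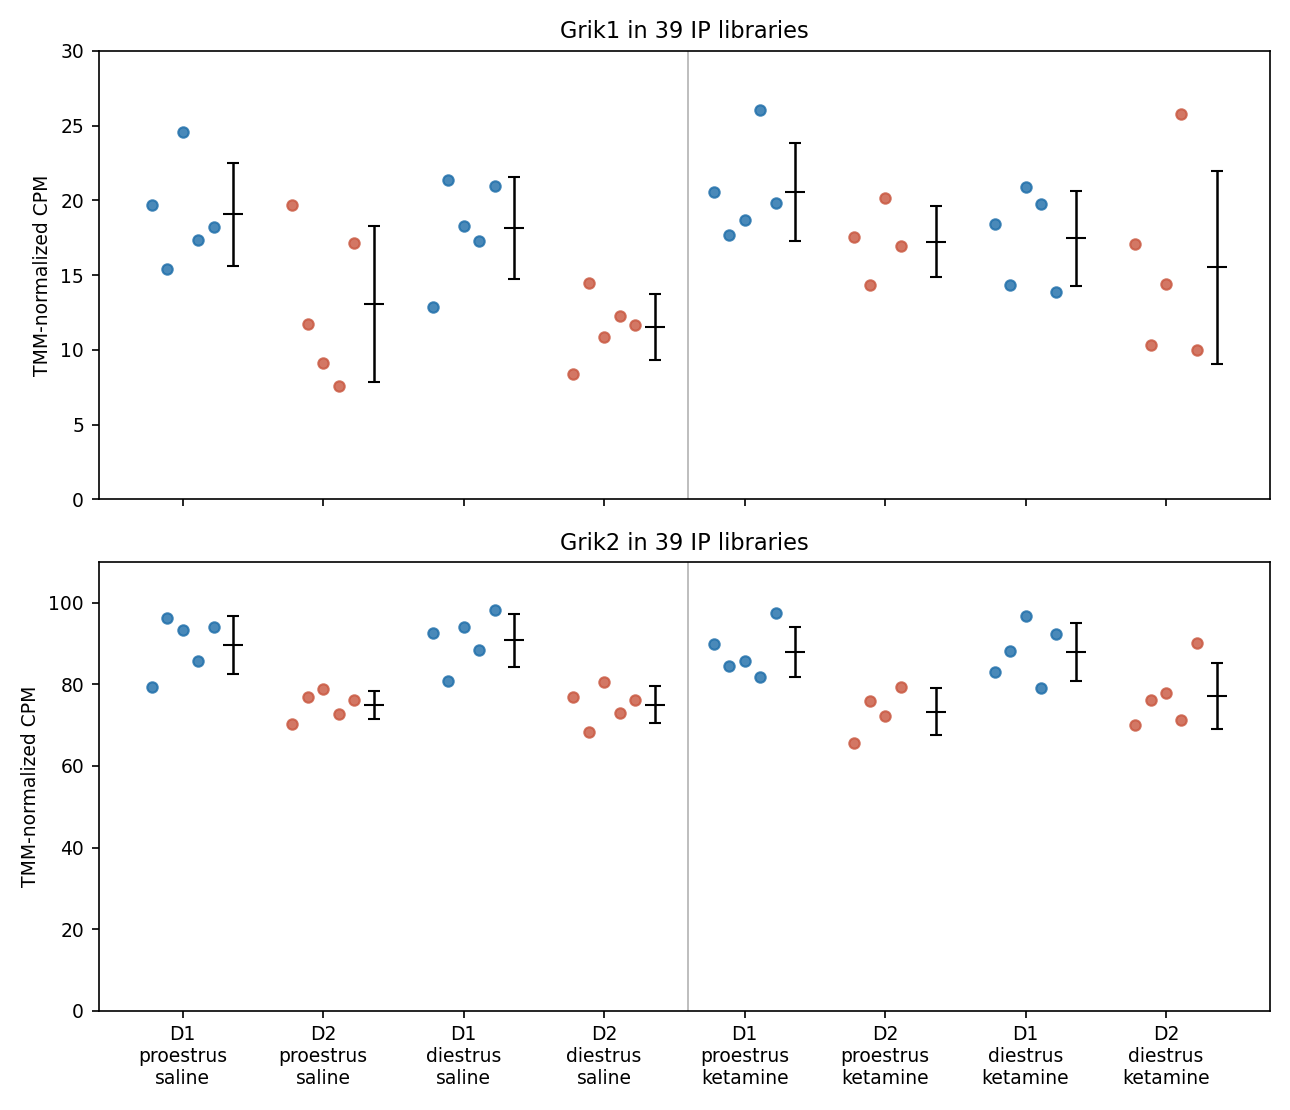
TMM-normalized CPM of Grik1 (top) and Grik2 (bottom) in the 39 IP libraries by group, 1 point per library, blue for D1 and red for D2, with the group mean and SD as black bars. The Grik2 group means were 87.9 to 90.8 CPM in D1 and 73.3 to 77.1 CPM in D2, and the Grik1 points of the 2 cell types overlap in every pair of groups matched by stage and treatment.

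Grik1 was also higher on average in D1 than in D2 libraries, with wider spread and overlap in every stage and treatment. In proestrus saline libraries, Grik1 stood at 19.7, 15.4, 24.6, 17.3 and 18.2 CPM in D1 and at 19.7, 11.7, 9.09, 7.59 and 17.2 CPM in D2. The D2 libraries fell into a low set of 3 and a pair, libraries 5 and 37, within the D1 range. In diestrus saline libraries, Grik1 stood at 12.9, 21.3, 18.3, 17.3 and 21.0 CPM in D1 and at 8.42, 14.4, 10.9, 12.3 and 11.7 CPM in D2. There 4 of 5 D1 libraries were above all D2 libraries, and library 3, the D1 library at 12.9 CPM, was within the D2 range.

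Pooled over stages, saline D1 libraries averaged 18.6 ± 3.28 CPM of Grik1 (SD, n = 10) and saline D2 libraries 12.3 ± 3.85 CPM (SD, n = 10). The log2 fold change was -0.61 (95% interval -0.95 to -0.27, edgeR adjusted p = 0.0120), larger in size than that of 93.7% of genes tested. Its standard error, 0.162, was wider than that of Grik2, 0.0412. This fit holds 2 surrogate variables, unlabelled sources of variation estimated from all genes. Leaving out library 1, 17 or 39 brought the value to -0.28, -0.27 and -0.27 and ended the call (adjusted p = 0.365, 0.264 and 0.130). Without libraries 33 and 39 together it was -0.22 (adjusted p = 0.201), and in a single model of all 39 libraries it was -0.17 (adjusted p = 0.521). With no surrogate variable in the fit the value was -0.60 (adjusted p = 0.0101), and Grik1 was DE in 20 of 20 fits with 1 library left out, at -0.71 to -0.54. The last set of fits was chosen after the data were seen. Within single stages Grik1 was not DE, with -0.25 in proestrus (95% interval -0.61 to 0.11, adjusted p = 0.498) and -0.40 in diestrus (-0.74 to -0.05, adjusted p = 0.288). With no surrogate variable the proestrus value was -0.55 and not DE (adjusted p = 0.245), and the diestrus value was -0.66 and DE (adjusted p = 0.0283). With blocks of 8 consecutive library numbers in place of surrogate variables, the proestrus value was -0.62, and in a single model of all 39 libraries it was -0.10, neither of them DE. The diestrus value was -0.63 and DE with blocks (edgeR adjusted p = 0.00155), and -0.23 and not DE in the single model.

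**Figure D2:**
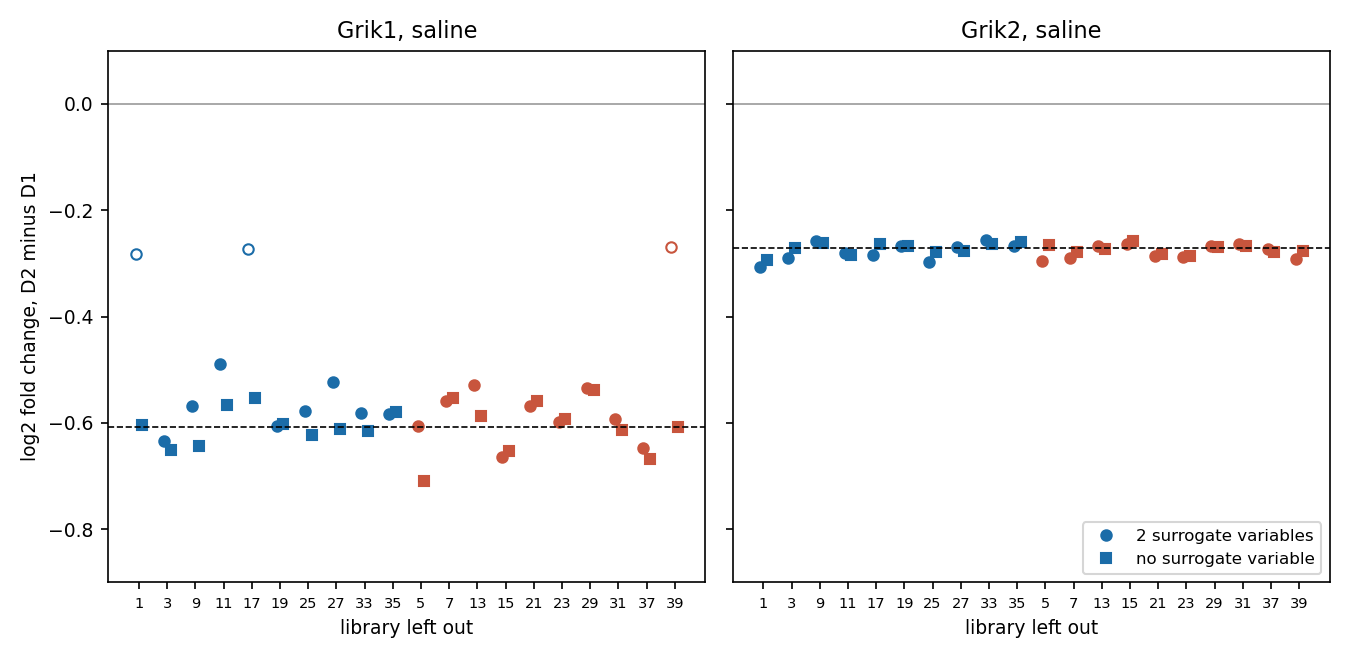
Log2 fold change, D2 minus D1, of Grik1 (left) and Grik2 (right) in saline libraries with 1 library left out at a time, as numbered on the x axis, blue for D1 and red for D2 libraries. Circles are fits with 2 surrogate variables and squares fits with none, filled symbols were DE, and the dashed line is the value with all 20 libraries. Grik2 stayed between -0.31 and -0.26, and the 3 open circles of Grik1 are libraries 1, 17 and 39.

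In ketamine-treated females Grik1 was also measured in both cell types. In proestrus it stood at 20.6, 17.6, 18.7, 26.0 and 19.8 CPM in D1 and at 17.5, 14.3, 20.1 and 17.0 CPM in D2 libraries. In diestrus it stood at 18.4, 14.3, 20.9, 19.7 and 13.8 CPM in D1 and at 17.1, 10.3, 14.4, 25.8 and 9.98 CPM in D2. The value of 25.8 CPM, in library 32, was the highest Grik1 level of any D2 library, and without it the mean of that group was 12.9 CPM in place of 15.5. Pooled D1 libraries averaged 19.0 ± 3.46 CPM (SD, n = 10) and pooled D2 libraries 16.3 ± 4.87 CPM (SD, n = 9). The log2 fold change was -0.26 (95% interval -0.47 to -0.05) with an edgeR adjusted p of 0.0960, just inside the threshold. The call was kept in 8 of 19 fits with 1 library left out, at -0.35 to -0.19, and was lost with no surrogate variable (-0.21, adjusted p = 0.453) and in the single model (-0.12, adjusted p = 0.558). The value farthest from 0, -0.35 (adjusted p = 0.0177), came when library 32 was left out. Proestrus libraries alone gave -0.31 (adjusted p = 0.227) and diestrus libraries alone -0.25 (adjusted p = 0.304), neither of them DE. With 1 library left out the proestrus value ran from -0.38 to -0.12, the latter without library 22.

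Ranked by group mean, the 4 D1 groups had the highest Grik2 levels, from 90.8 ± 6.53 CPM (SD, n = 5) in diestrus saline over 89.7 ± 7.05 in proestrus saline and 87.9 ± 7.09 in diestrus ketamine to 87.9 ± 6.16 in proestrus ketamine. The D2 groups followed with 77.1 ± 8.00 in diestrus ketamine, 75.0 ± 3.41 in proestrus saline, 75.0 ± 4.56 in diestrus saline and 73.3 ± 5.83 (n = 4) in proestrus ketamine. Only the step from the last D1 to the first D2 group, 10.7 CPM, was larger than the SD of either neighbour. For Grik1 the order was D1 proestrus ketamine (20.6 ± 3.26 CPM), D1 proestrus saline (19.1 ± 3.46), D1 diestrus saline (18.1 ± 3.42), D1 diestrus ketamine (17.4 ± 3.20), D2 proestrus ketamine (17.2 ± 2.37), D2 diestrus ketamine (15.5 ± 6.45), D2 proestrus saline (13.1 ± 5.21) and D2 diestrus saline (11.5 ± 2.19). No step between Grik1 neighbours reached the larger of their SDs. Relative to the mean, the SD was 4.55% to 10.4% for Grik2 and 13.8% to 41.6% for Grik1.

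Ketamine was compared with saline within each cell type and stage, to ask whether repeated treatment left a difference in either gene. For Grik2 the log2 fold changes, ketamine minus saline, were -0.02 in proestrus D1 (95% interval -0.13 to 0.08), -0.04 in diestrus D1 (-0.15 to 0.06), -0.02 in proestrus D2 (-0.12 to 0.08) and 0.12 in diestrus D2 (-0.02 to 0.25). All 4 Grik2 intervals lay between -0.15 and 0.25. For Grik1 they were 0.14 in proestrus D1 (-0.08 to 0.36), -0.05 in diestrus D1 (-0.23 to 0.14), 0.09 in proestrus D2 (-0.22 to 0.41) and 0.12 in diestrus D2 (-0.25 to 0.48). None of these 8 values was DE by edgeR (adjusted p of 0.906 to 1.00). The percentages of genes DE by edgeR in these comparisons were 0.00759 in proestrus D1, 0.0227 in diestrus D1 and 0 in both D2 comparisons. In the D2 comparisons 457 genes in proestrus and 355 in diestrus had an unadjusted p under 0.05, and DESeq2 with the same surrogate variables called 1 and 0 genes. In the D1 comparisons edgeR called 1 gene in proestrus and 3 in diestrus, and DESeq2 called 16 and 10.

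The Grik1 value in D2 libraries depended on the surrogate variables. D2 libraries had pooled Grik1 means of 12.3 CPM with saline and 16.3 CPM with ketamine. With no surrogate variable the ketamine difference was 0.40 for proestrus (edgeR adjusted p = 0.914) and 0.44 for diestrus rats (0.960), against 0.09 and 0.12 above. For Grik2 in diestrus D2 libraries it was 0.045 with no surrogate variable, against 0.12. The same setting moved the interaction of cell type with ketamine for Grik1 from 0.05 (95% interval -0.30 to 0.39) to 0.39, with an unadjusted p of 0.0801 and an adjusted p of 0.665. For Grik2 that interaction was 0.10 (-0.04 to 0.24), and 0.045 with no surrogate variable. Neither gene was DE in it, so a difference between saline-treated and ketamine-treated females in the D1 bias was not shown for either.

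Proestrus was compared with diestrus in the same way. For Grik2 the log2 fold changes, proestrus minus diestrus, were -0.04 in saline D1 (95% interval -0.16 to 0.09), 0.01 in saline D2 (-0.11 to 0.13), -0.01 in ketamine D1 (-0.11 to 0.09) and -0.11 in ketamine D2 (-0.24 to 0.03). For Grik1 they were -0.05 in saline D1 (-0.27 to 0.18), 0.08 in saline D2 (-0.38 to 0.55), 0.26 in ketamine D1 (0.04 to 0.47) and 0.23 in ketamine D2 (-0.14 to 0.60). The Grik1 difference in ketamine D1 had the lowest p of these, 0.0242 before adjustment and 0.999 after it. Its libraries overlapped, with 2 diestrus libraries below all proestrus libraries and 1 proestrus library, number 26, above all diestrus libraries, and without library 26 the value was 0.17. The percentage of genes called was 0 in all 4 stage comparisons, where 469 to 545 genes had an unadjusted p under 0.05 and DESeq2 called 0 to 4. The interactions with cycle stage were not DE for either gene, at 0.15 for Grik1 and 0.03 for Grik2 with cell type in saline, 0.24 and -0.00 with ketamine in D1, and 0.02 and -0.08 with ketamine in D2 libraries. In the interactions 0% of genes were DE, 243 to 668 had an unadjusted p under 0.05, and DESeq2 called 0 to 6.

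**Figure D3:**
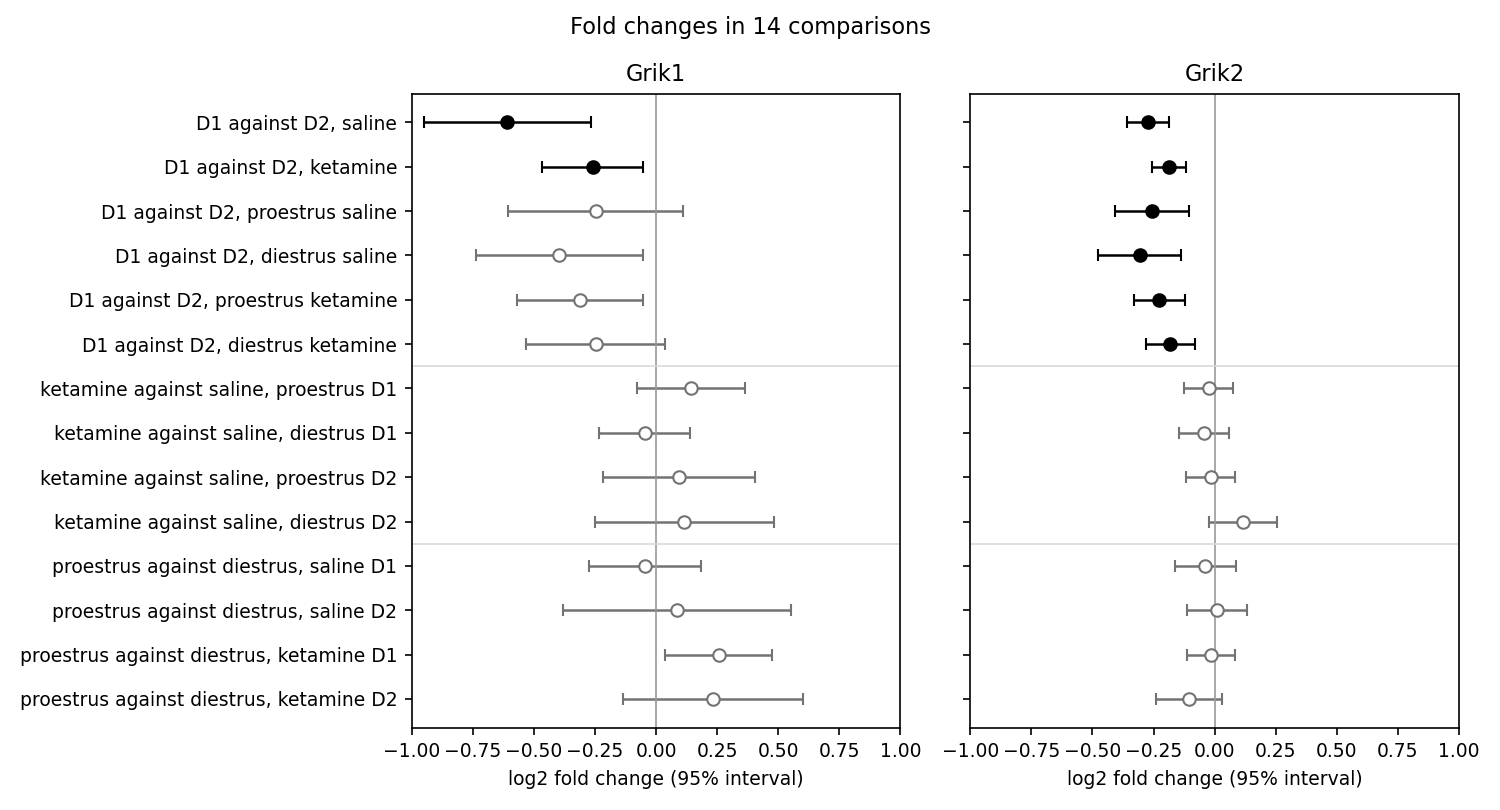
Log2 fold changes with 95% intervals from edgeR for Grik1 (left) and Grik2 (right) in the 14 comparisons between groups, as D2 minus D1, ketamine minus saline or proestrus minus diestrus, with filled points for DE. All 6 cell type contrasts of Grik2 are filled, from -0.31 to -0.18, against 2 of 6 for Grik1, and no point below the first dividing line is filled. The pooled contrasts hold the same libraries as the within-stage contrasts. Within stages, the Grik2 calls other than that in proestrus ketamine were lost in some fits with 1 library left out.

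The ratio of Grik2 to Grik1 counts in the same library does not depend on library size. Since the transcripts differ in length, it is used to compare libraries only. Its log2 mean was 2.30 ± 0.30 (SD, n = 10) for saline D1 and 2.67 ± 0.48 (SD, n = 10) for saline D2 libraries, and 2.23 ± 0.30 (n = 10) and 2.27 ± 0.53 (n = 9) in D1 and D2 ketamine libraries. The log2 ratio ran from 1.65 to 2.85 in D1 and from 1.47 to 3.26 in D2 libraries, so the D2 libraries spanned the wider range. Across the 39 libraries the correlation of log2 CPM between the genes was 0.21, and after the group means were subtracted it was -0.39, a description over libraries that share a sequencing run.

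Markers of other cells moved with the D1 and D2 labels. Of 5 D2 neuron markers only Adora2a, the adenosine receptor gene of D2-MSNs, was paired with an identifier, and it was higher in every D2 library (452 to 1063 CPM) than in any D1 library (141 to 221 CPM). None of 5 D1 neuron markers and none of 5 markers of glutamatergic projection neurons were paired. Of 10 interneuron markers, Sst (somatostatin) and Nos1 (neuronal nitric oxide synthase) were paired, and both were D1-biased, Sst with -1.61 in saline and -1.63 in ketamine and Nos1 with -1.78 and -1.82 (edgeR adjusted p of 2.01e-05 or lower). Their summed level was 246 to 837 CPM in D1 and 72.4 to 290 CPM in D2 libraries. Neither was at 0 in any library. Of the glial and endothelial markers, Gja1 of astrocytes (0.59), Mog of oligodendrocytes (0.51) and Flt1 of endothelial cells (0.82) were D2-biased in saline libraries. Gfap, Pdgfra and Aif1, of astrocytes, oligodendrocyte precursors and microglia, had values of 0.38, 0.24 and 0.37 that were not DE there. In ketamine libraries Gja1 (0.39), Flt1 (0.69) and Pdgfra (0.32) were D2-biased, and Mog (0.28), Gfap (0.28) and Aif1 (0.17) were not DE. Summed levels in D1 and D2 libraries were 29.0 to 50.8 and 39.8 to 114 CPM for the 2 of 5 paired astrocyte markers. They were 2.01 to 4.67 and 2.78 to 11.8 CPM for Flt1, 1 of 4 endothelial markers, and 0.527 to 1.10 and 0.367 to 2.17 CPM for Aif1, 1 of 5 microglial markers.

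Correlations of Grik1 and Grik2 with these markers are given as a description. Over the 39 libraries Grik1 correlated with Sst at r = 0.69 and with Nos1 at 0.60 on the log2 CPM scale, and at 0.55 and 0.36 after the group means were subtracted. Grik2 correlated with Sst at 0.53 and with Nos1 at 0.74, and at -0.40 and 0.34 within groups. With Adora2a, Grik1 was at -0.61 and -0.51 within groups, and Grik2 at -0.76 and 0.05. With the glial and endothelial markers named above, Grik1 ran from -0.46 (Gja1) to -0.13 (Aif1), and from -0.21 (Gja1) to 0.06 (Aif1) within groups. Grik2 ran from -0.56 (Gja1) to -0.39 (Gfap), and from -0.40 (Aif1) to -0.16 (Flt1) within groups.  Library 5, with the highest Grik1 level among D2 saline libraries, had the highest Sst level of all D2 libraries, 276 CPM, and an Adora2a level of 1025 CPM. Library 37, the other proestrus D2 saline library within the D1 range of Grik1, had 128 CPM of Sst, below the D2 saline mean of 140 CPM. Library 32, with the highest Grik1 level of all D2 libraries, had the lowest Adora2a level of them, 452 CPM against 764 or more in the other 18. These correlations describe 39 libraries that differ by cell type. The part of interneuron, glial or endothelial RNA in the D1 bias of Grik1 and Grik2 was not tested.

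**Figure D4:**
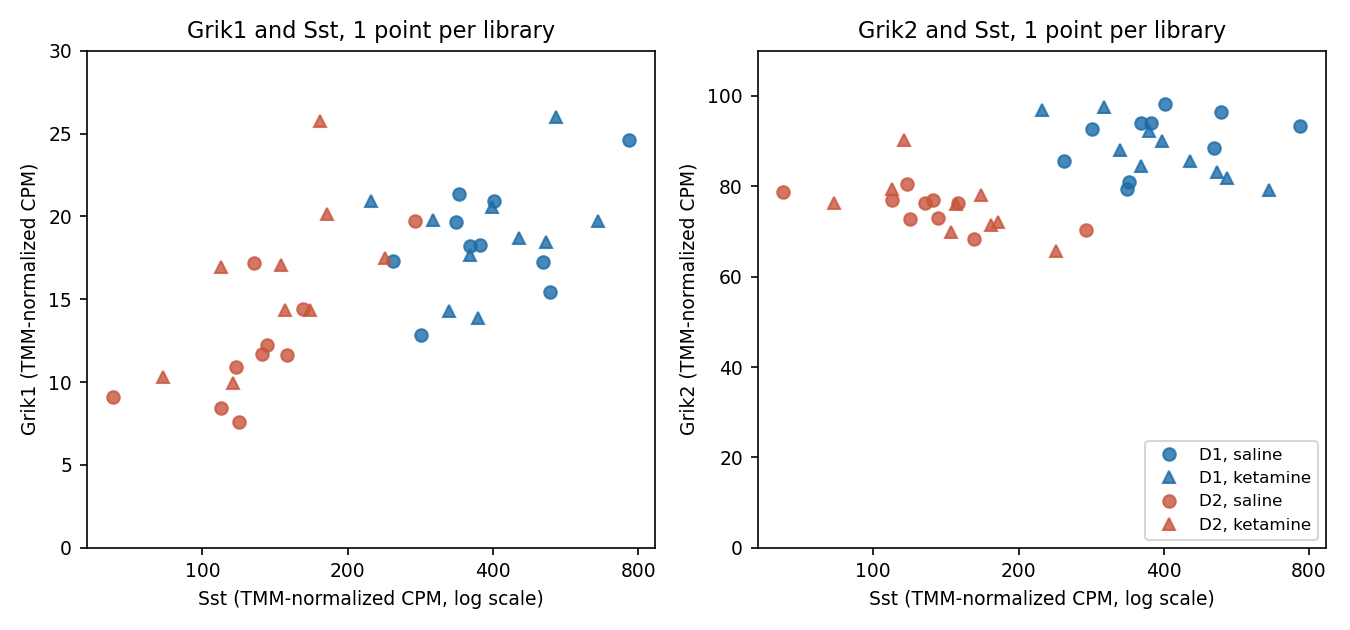
Grik1 (left) and Grik2 (right) against Sst, a somatostatin interneuron marker, in TMM-normalized CPM with 1 point per library, blue for D1 and red for D2, circles for saline and triangles for ketamine, with Sst on a log axis. Within groups Grik1 correlates with Sst at 0.55, and library 32 lies above the other D2 libraries at 25.8 CPM. Grik2 is higher on average in D1 libraries, with overlap that includes the D2 library at 90.2 CPM, and within groups its correlation with Sst is -0.40.

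The genes with the most similar pattern across the 39 libraries were sought among 1594 genes with a symbol. For Grik1 they were Whrn (whirlin, a scaffold protein of hair cells and synapses) at r = 0.90, Epn3 (0.85), Cds1 (0.84), Atp1b1, a subunit of the sodium pump (0.83), and Tmem132c (0.83). Whrn had the highest correlation with Grik1 of all 14129 genes, and within groups its correlation was 0.86. The 39 libraries include the difference between D1 and D2, so a bias shared with Grik1 or Grik2 is largely set by this choice of genes, and the following values are a description. The D2 minus D1 values of these genes in saline libraries ran from -0.83 (Epn3) to -0.26 (Atp1b1), with -0.61 for Whrn. In ketamine libraries they were -0.41 for Whrn, -0.57 for Epn3, -0.10 for Cds1, -0.06 for Atp1b1 and -0.25 for Tmem132c. For Grik2 they were Tmtc1 (0.77), Dgkg, a diacylglycerol kinase (0.76), Gnaz, a G protein alpha subunit (0.75), Nos1 (0.74) and Maoa, monoamine oxidase A (0.74), with within-group correlations of 0.34 to 0.64. Their D2 minus D1 values in saline libraries were -0.68 for Tmtc1, -0.25 for Dgkg, -0.28 for Gnaz, -1.78 for Nos1 and -0.09 for Maoa. In ketamine libraries they ran from -1.82 (Nos1) to -0.14 (Maoa).

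Of 38 other genes on the glutamate receptor lists, 6 were paired with an identifier and 5 were tested. Among partners of kainate receptors, Grip1, a PDZ scaffold protein that binds AMPA and kainate subunits, had -0.12 (SE 0.0636) and Dlg3, the scaffold protein SAP102, had 0.07 (SE 0.0415) between cell types in saline libraries, and neither was DE. Grin2c, an NMDA receptor subunit, was the paired receptor subunit with a D2 bias, at 0.43 in saline (edgeR adjusted p = 0.0365) and 0.39 in ketamine libraries (adjusted p = 0.00216). Grm4, a presynaptic metabotropic receptor, was not DE in saline (0.07) and was D1-biased in ketamine libraries (-0.21, adjusted p = 0.00297). Adarb1, an RNA editing enzyme that acts on kainate receptor transcripts, had a D2 bias in saline libraries (0.11, adjusted p = 0.0751) and was not DE in ketamine libraries (0.07). Grm6 was removed by the low-count filter. None of the 5 tested genes was DE in any of the 8 comparisons of ketamine with saline or of cycle stages.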

How the data were processed

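The deposited values are expected counts per gene, which the authors made by trimming reads with fastp 0.23.4, quantifying transcripts with Salmon 1.10.2 against mRatBN7.2 and Ensembl annotation, and summing per gene with tximport, per the submitters' processing notes and the study's methods. They are rounded and not normalized, and 0 per-sample columns were left unused. Salmon divides reads shared by similar transcripts, and the libraries are stranded. Input libraries are not used here. No 2 libraries of a group were identical over 76 pairs.

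For each comparison, genes were filtered with filterByExpr (minimum count 10) and scaled by TMM, and edgeR 4.0.16 was used for testing (quasi-likelihood, robust, Benjamini-Hochberg over all genes) with 2 surrogate variables from sva 3.50.0, in R 4.3.3 with limma 3.58.1. The study's methods name DESeq2 1.42.1 with surrogate variables, their number not stated. Cycle stage was a covariate in the pooled cell type comparisons. Only the libraries compared entered a fit. Steps were tested on simulated counts. Correlations used log2 CPM with a prior count of 2, and standard errors and 95% intervals come from the edgeR test. P-values measure the spread between rats within these groups.

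Alternatives were 0 or 1 surrogate variable, DESeq2 1.42.0 (with 2 surrogate variables, or without), its size factors within edgeR, no filter, at least 10 counts in every library, blocks of 8 consecutive library numbers, a single model of 39 libraries, omission of libraries 33 and 39, and omission of each library in turn. Omission of each library with no surrogate variables was added after seeing the data. Named genes are the members, paired kainate subunits and partners, up to 4 genes of each other list by p in saline, and the 5 nearest patterns of each member. Symbols were known for 1966 of 23978 identifiers, from supplementary tables in identifier order that were read in part. Their columns of fold changes and p-values were not used. Members and lists were chosen with earlier results of these data known. A marker gene, and the summed level of its list, are not reported here.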

Additional observations from a re-analysis of the deposited data

Results flagged for a closer look

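Of 24 sets of values examined (Grik1, Grik2 and their ratio in 8 groups), 1 held a library far from the others by Dixon's test. In proestrus D1 ketamine libraries, the log2 ratio of Grik2 to Grik1 was 1.65 in library 26 and 2.13 to 2.30 in the other 4, a gap of 0.734 of the range against a critical value of 0.71. Library 26 had the highest Grik1 level of all 39 libraries, 26.0 CPM, and a Grik2 level of 81.8 CPM. Chance flags about 1 in 20 such sets.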

How the results depend on the processing

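No paired analysis was possible because no label pairs libraries and no library number occurs in more than 1 group. Blocks of 8 consecutive numbers, each with at most 1 library of a group, were fitted as an alternative in place of surrogate variables, with the effects given below. All 117 group levels and ratios with 1 library left out, and 16 levels under DESeq2 size factors, stayed within 1 SD. Of 430 fold changes with 1 library left out, 24 lost a call, 4 gained one and 33 turned sign, the last all among ketamine, stage and interaction values that were not DE. The causes were not tested.

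With 1 library left out, Grik1 ran from -0.66 to -0.27 in saline (DE in 17 of 20, and in 20 of 20 at -0.71 to -0.54 with no surrogate variable), -0.35 to -0.19 in ketamine (8 of 19, and 1 of 19 at -0.34 to -0.15 with no surrogate variable), -0.56 to -0.10 in proestrus saline (DE without library 5, -0.56), -0.55 to -0.25 in diestrus saline (DE without library 3, -0.54, or 39, -0.38) and -0.42 to -0.14 in diestrus ketamine (DE without library 32, -0.42). In ketamine the calls were lost without library 2, 4, 16, 20, 22, 24, 26, 28, 34, 36 or 40. Grik2 ran from -0.30 to -0.20 in proestrus saline, -0.39 to -0.25 in diestrus saline and -0.22 to -0.14 in diestrus ketamine, and was DE in 20 of 20 pooled saline fits (-0.31 to -0.26) and 19 of 19 pooled ketamine fits. Signs turned for Grik2 with ketamine in proestrus D1 (-0.092 to 0.030) and D2 (-0.055 to 0.00125), for Grik1 and Grik2 between stages in saline D1 (-0.11 to 0.071 and -0.091 to 0.011) and saline D2 (-0.085 to 0.23 and -0.030 to 0.053), for Grik2 between stages in ketamine D1 (-0.040 to 0.026), for the interaction of cell type with stage (-0.00933 to 0.27 and -0.014 to 0.066), and for ketamine with stage in D1 for Grik2 (-0.050 to 0.055) and in D2 for Grik1 (-0.088 to 0.21). The interaction of cell type with ketamine was not run with libraries left out.

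Grik1 in saline lost its call without libraries 33 and 39 (-0.22) and in the single model (-0.17). In ketamine it lost it with no surrogate variable (-0.21, and -0.21 in DESeq2), no filter (-0.26) and the single model (-0.12). In diestrus saline it gained one with 0 or 1 surrogate variable (-0.66 each), DESeq2 without them (-0.66), blocks (-0.63) and without library 39 (-0.38). Grik2 lost its call in proestrus saline without library 33 (-0.27), and in diestrus ketamine with 0 or 1 surrogate variable (-0.19 and -0.18), DESeq2 without them (-0.19) and blocks (-0.19). Values not DE that turned sign were Grik2 with ketamine in proestrus D2 (0.027, single model), Grik1 between stages in saline D1 (0.066 with no surrogate variable, 0.036 with 1, 0.068 in DESeq2 without them, 0.069 with blocks, 0.042 in the single model), Grik2 in saline D2 (-0.00213, -0.00108 and -0.00273 with 0, 1 and blocks), ketamine with stage in D1 for Grik2 (0.016, 0.00547, 0.017, 0.00185, 0.017, 0.025 and 0.000993 with 0, 1, DESeq2 without, the stricter filter, blocks, without library 33, and the single model) and in D2 for Grik1 (-0.033, -0.049, -0.034 and -0.017 with 0, 1, DESeq2 without and blocks).

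The count of DE genes moved by over 1.5 times in saline (3941) to 1642 without libraries 33 and 39 and 1848 in the single model, in proestrus saline (718) to between 422 and 1441, in diestrus saline (546) to between 854 and 1348, in proestrus ketamine (748) to 394 and 447, and in diestrus ketamine (1705) to between 611 and 994. For ketamine it moved from 1 to between 0 and 16 in proestrus D1, from 3 to 0 or 10 in diestrus D1 and from 0 to 1 in proestrus D2, between stages from 0 to between 1 and 14, and for the interactions from 0 to between 1 and 6. Depth limited library 39 most, with 28 counts for Grik1.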
